A study of Oryza sativa Japonica Group with 36 samples.

Results

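The flag leaf (FL), the uppermost leaf of the rice culm, was compared with the second leaf (SL), the leaf inserted directly below it, at 4 days after heading (DAH). The comparison used the 3 FL libraries and the 3 SL libraries of that day, 6 of the 36 mRNA-sequencing libraries of the series, and covered all genes. The plants were of the japonica cultivar Dongjin, grown in a paddy field, and no treatment or mutation separated the groups: FL and SL differ in position on the culm and, with it, in age and light. Each replicate was a pool of the middle parts of 9 leaves taken in the early morning, so that differences between single plants and between the base and tip of a blade were not measured. The other 30 libraries came from the same leaf positions at 12, 20, 28, 36 and 44 DAH and entered the fit for the estimate of the spread and for 1 test of what differed between 4 DAH and the later days. The deposited values were read counts scaled by effective library sizes, in the unit CPM. At 4 DAH, 18239980 to 29789199 reads on genes lay behind each FL library and 8817254 to 25097907 behind each SL library, so that 1 read was worth 0.0358 to 0.110 CPM. Differences are FL minus SL on the scale of log2(CPM + 1) after quantile normalization, with the standard error (SE), and a gene was called at an adjusted p below 0.05 in limma with Benjamini-Hochberg adjustment over all genes tested. P-values measure the spread between these pools.

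Both leaves are source organs for the developing grain. The flag leaf is the last leaf formed, receives the most light and supplies a large part of the carbon that fills the grain, while the second leaf is older and stands lower in the canopy. Chlorophyll is built from glutamate through 5-aminolevulinate and protoporphyrin, into which magnesium chelatase inserts magnesium, and nitrate is reduced to ammonium and taken into glutamine by glutamine synthetase. As a leaf ages, chlorophyll and protein are dismantled, and hormones such as ethylene, abscisic acid and jasmonate, which also act in responses to wounding, cold and drought, promote this process.

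Of 22057 genes tested, 3108 (14.1%) differed between FL and SL at 4 DAH, of which 1667 (7.56% of the genes tested) were higher in FL and 1441 (6.53%) were higher in SL. The median absolute difference of the called genes was 0.60 in the direction of FL and 0.63 in the direction of SL. Differences of at least 1 on the log2 scale were found for 168 genes higher in FL and 271 genes higher in SL, and differences of at least 2 for 6 and 26 genes. The FL and SL values as deposited did not overlap for 1641 of the 1667 genes higher in FL and 1356 of the 1441 higher in SL, against 22.8% and 17.3% of all genes tested in the respective direction and 40.2% in either. The median difference of all genes tested was 0.01 after quantile normalization and 0.02 without it. When 1 of the 6 libraries was left out, 1897 to 2709 genes were called. The fewest were called without SL replicate 3 (1897) and SL replicate 1 (2000). With the 6 libraries of the day alone in the fit, 5002 genes were called.

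**Figure D1:**
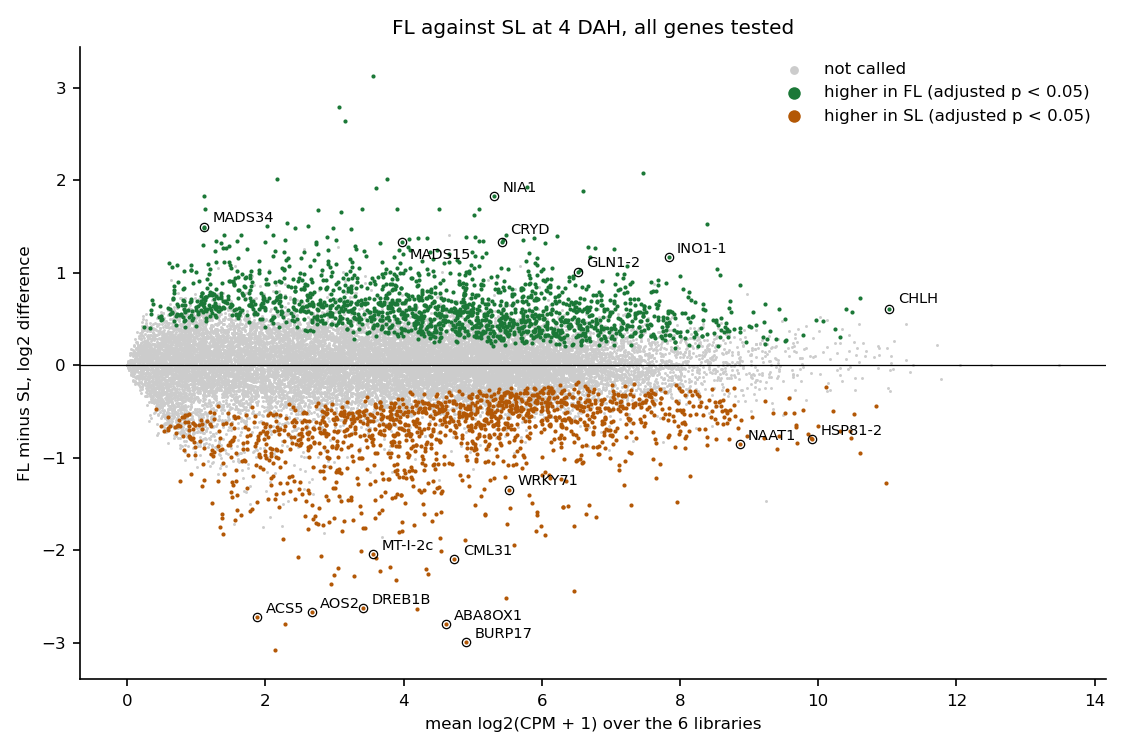
FL minus SL difference at 4 DAH (vertical axis, log2) against the mean log2(CPM + 1) of the 6 libraries (horizontal axis) for the 22057 genes tested. Green points are the 1667 genes called higher in FL, orange points the 1441 called higher in SL and grey points the rest, and circles mark genes named in the text; differences of 2 or more were more frequent among the genes higher in SL (26) than among those higher in FL (6).

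The libraries were leaf tissue by their markers. RBCS-C, a small subunit of Rubisco, and RCA, Rubisco activase, were at 665 to 1639 CPM and 8809 to 15349.6 CPM, while the meristem genes OSH1 and OSH6 and the floral gene MADS6 were at 0 in all 6 libraries and MADS3 was at 0.0959 to 0.608 CPM. The storage protein gene GLUA1 was at 0 in 4 libraries and at most at 0.540 CPM. MADS1, a floral gene, and LSI1, a silicon transporter of roots, were nevertheless detected, at 15.6 to 21.7 CPM and 7.28 to 12.1 CPM, and neither was called between the leaves (adjusted p = 0.35 and 0.17). FL replicate 1 stood apart from the other FL libraries: the correlation of log2 values over genes was 0.988 and 0.984 with FL replicates 2 and 3, which correlated at 0.997, and 0.991 to 0.994 among the SL libraries. In bulk tissue, fewer cells of a type and less RNA per cell cannot be told apart.

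Among the genes with a name, nitrate reductase showed the largest difference in the direction of FL on the scale of log2(CPM + 1). The added 1 makes differences of genes at few CPM smaller on this scale. Over the alternatives, the difference of MADS34 reached 3.35 and that of NIA1 2.05. NIA1 (OS08G0468100), which encodes the enzyme that reduces nitrate to nitrite, was at 76.0, 79.7 and 66.4 CPM in FL and 13.6, 26.7 and 21.9 CPM in SL. The 12 genes with a name and the largest difference in each direction, NIA1 among them, were taken from the genes without overlap between the leaves. The difference of NIA1 was 1.83 ± 0.18 (SE, n = 3 per leaf), adjusted p = 9.3e-08. GLN1-2 (OS03G0223400), a cytosolic glutamine synthetase, was at 136, 135 and 133 CPM in FL and 52.1, 68.0 and 64.8 CPM in SL, a difference of 1.01 ± 0.15, adjusted p = 2.3e-05. The FL values lay between 133 and 136 CPM, above all SL values. GLT2 (OS05G0555600), an NADH-dependent glutamate synthase, differed in the opposite direction, with 3.96, 4.25 and 6.72 CPM in FL and 9.49, 9.02 and 12.6 CPM in SL (-0.89 ± 0.20, adjusted p = 0.0024). Of the 8 members of the nitrogen assimilation list, all tested, 2 were thus higher in FL (7.56% of all genes tested) and 1 was higher in SL (6.53%). The median of the list was 0.24, against 0.01 for all genes tested. The plastidic glutamine synthetase GS2 (0.25, adjusted p = 0.070), GLN1-1 (0.33, 0.24), Fd-GOGAT (0.22, 0.56), the glutamate dehydrogenase GDH2 (0.22, 0.39) and the ammonium transporter AMT1-1 (-0.14, 0.47) were not called.

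Chlorophyll synthesis was the list with the largest number of members higher in FL. Of its 10 members, all tested, 7 were higher in FL (7.56% of all genes tested) and none was higher in SL (6.53%). The median difference of the list was 0.57. GluTR, glutamyl-tRNA reductase, was at 896, 802 and 799.7 CPM in FL and 405, 441 and 453 CPM in SL (0.66 ± 0.16, adjusted p = 0.0040). GSA, which forms 5-aminolevulinate, differed by 0.54 ± 0.14, adjusted p = 0.0070. All 3 subunits of magnesium chelatase were higher in FL. CHLH was at 2770.4, 2794 and 2700.3 CPM in FL and 1546, 1731 and 1502 CPM in SL (0.61 ± 0.16, adjusted p = 0.0082). CHLI was at 354, 318 and 306 CPM in FL and 136, 157 and 160.5 CPM in SL (0.89 ± 0.14, adjusted p = 6.8e-05). CHLD, the third subunit, differed by 0.51 ± 0.09, adjusted p = 0.00029. The chelatase subunits thus differed by 0.51 to 0.89 on the log2 scale, with CHLI highest. No FL library overlapped an SL library for any of them (22.8% of all genes tested in this direction). DVR, a divinyl reductase, was at 50.3, 41.9 and 37 CPM in FL and 22.9, 25.8 and 24.1 CPM in SL (0.76 ± 0.18, adjusted p = 0.0034). CHLG, chlorophyll synthase, was at 116, 120.1 and 116 CPM in FL and 65.6, 71.0 and 66.8 CPM in SL (0.68 ± 0.12, adjusted p = 0.00028). The protochlorophyllide reductases were not called: PORB differed by 0.36 (adjusted p = 0.37) and PORA, present at 1.44 to 4.19 CPM, by -0.43 (0.11). CAO, which makes chlorophyll b, differed by 0.07 (0.73). Each of the 7 calls was kept when any 1 of the 6 libraries was left out, and without SL replicate 2 PORA was called higher in SL. With replicate 1 of both leaves left out, the calls of GluTR (adjusted p = 0.066), GSA (0.104) and DVR (0.092) were lost, which left 4 of the 7, and that of CHLH was lost without replicate 2 (0.065) or 3 (0.070) of both leaves.

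The breakdown of chlorophyll gave a call in each direction, against 7.56% (FL) and 6.53% (SL) of all genes tested. RCCR1, red chlorophyll catabolite reductase, was higher in SL, with 10.3, 11.8 and 10.7 CPM in FL and 24.9, 19.4 and 30.5 CPM in SL (-1.13 ± 0.22, adjusted p = 0.00077). Every SL library exceeded the highest FL library by more than 7 CPM. NYC1, a chlorophyll b reductase, was higher in FL by a smaller amount, with 95.0, 119 and 119 CPM in FL and 75.0, 81.5 and 85.7 CPM in SL (0.33 ± 0.08, adjusted p = 0.0064). The other members tested, SGR (-0.37, adjusted p = 0.28) and NOL (0.28, 0.45), were not called, and the median of the 4 was -0.05.

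The members of the light harvesting list, which bind chlorophyll at the photosystems, were not called, although the deposited values of 6 of the 7 members were higher in FL without overlap (22.8% of all genes tested). RCABP69 was at 1697, 1219.6 and 1228 CPM in FL and 787, 807 and 794 CPM in SL, but its difference was 0.52 with an SE of 0.32 (adjusted p = 0.32). This SE came from the spread in all 36 libraries, later days included, and not from the 6 libraries of the day alone. The differences of LHCA2, LHCA3 and LHCA4 of photosystem I were 0.15, 0.10 and 0.18, and those of RCABP89, CAB1R and CAB2R were 0.40, 0.09 and -0.37. Before quantile normalization, LHCA3 was at 2213, 1688 and 1660 CPM in FL and 1502, 1515 and 1374 CPM in SL. In the Calvin cycle and photorespiration list, 2 of the 6 members were higher in FL (7.56% of all genes tested). RBCS-C was at 1639, 1192 and 1108 CPM in FL and 772, 884 and 665 CPM in SL (0.49 ± 0.14, adjusted p = 0.020), and FBPASE, fructose-1,6-bisphosphatase, differed by 0.29 ± 0.10, adjusted p = 0.043. The call of RBCS-C was lost without FL replicate 1 or SL replicate 1 or 3 (0.068 to 0.097). That of FBPASE was lost whichever of the 6 libraries was left out (0.055 to 0.16), without the filter on low values (0.071) and with the replicate block (0.064), where the block pairs same-numbered libraries and left the list with 1 call. RCA (13118, 10099 and 9165 CPM in FL and 15349.6, 14100.2 and 8809 CPM in SL) and the aldolase ALDP (7583, 5567 and 5161 CPM in FL and 6335, 6123 and 4513 CPM in SL) were among the genes with the most reads and held the same rank in all 6 libraries of the day, so that quantile normalization set their difference at 4 DAH to 0 whatever their deposited values. RBCS-A (0.02) and the glycolate oxidase GLO1 (-0.13) were not called. The median of the list was 0.01, a value that depends on the differences of RCA and ALDP set to 0 by quantile normalization. Reads of near-identical RBCS copies can be divided among them by the counting, so their single values are uncertain.

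Starch synthesis had 3 of 5 members higher in FL (7.56% of all genes tested) and none higher in SL (6.53%). The median of the list was 0.26. SSII-2, a starch synthase, was at 277, 292 and 296 CPM in FL and 165, 184 and 193 CPM in SL (0.46 ± 0.09, adjusted p = 0.00052). AGPS2, the small subunit of ADP-glucose pyrophosphorylase, was at 285, 293 and 277 CPM in FL and 195, 209 and 211 CPM in SL (0.26 ± 0.08, adjusted p = 0.036), and the isoamylase ISA1 was at 16.86, 16.6 and 16.2 CPM in FL and 9.37, 10.7 and 10.9 CPM in SL (0.66 ± 0.21, adjusted p = 0.035). The call of AGPS2 was lost whichever of the 6 libraries was left out (0.066 to 0.14) and with the replicate block (0.062). The call of ISA1 was lost whichever of the 6 libraries was left out (0.062 to 0.11) and without the filter on low values (0.054). The branching enzyme SBE1 (-0.28) and GBSS1 (0.09, at 0.286 to 0.660 CPM) were not called.

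Of the sucrose and SWEET transport list, 6 of 9 members were tested and 1 was called (14.1% of all genes tested). SWEET14, a sugar carrier, differed by 0.62 ± 0.21, adjusted p = 0.048, with 4.68, 4.61 and 3.86 CPM in FL and 2.87, 3.36 and 1.74 CPM in SL. Its call was lost without FL replicate 1, 2 or 3 or SL replicate 1 or 3 (0.069 to 0.31), without quantile normalization (0.054), without the filter on low values (0.071) and with the 6 libraries of the day alone (0.051). Over the wider SWEET family, 3 of the 10 members tested were higher in FL (7.56% of all genes tested) and none was higher in SL (6.53%). The median of the family was 0.51. SWEET6a was at 3.78, 3.14 and 3.72 CPM in FL and 0.993, 1.92 and 1.36 CPM in SL (0.96 ± 0.22, adjusted p = 0.0033). SWEET1a was at 81.1, 77.2 and 79.2 CPM in FL and 40.7, 48.3 and 46.1 CPM in SL (0.73 ± 0.16, adjusted p = 0.0022). The sucrose transporters SUT1, SUT2 and SUT4 differed by -0.03, 0.05 and 0.03, FBP1 by 0.15 and SWEET13 by -0.42 (adjusted p = 0.15). SWEET11 did not pass the filter, and SUT5 and SWEET15 had no read at 4 DAH.

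Of the flowering and phase change list, 4 of the 10 members tested were higher in FL and none was higher in SL, with a median of 0.10. For this list and the MADS family, the shares of all genes tested were 7.56% higher in FL and 6.53% higher in SL. MADS34 (OS03G0753100), known from panicle branching, was at 2.34, 3.26 and 2.36 CPM in FL and 0.551, 0.192 and 0.155 CPM in SL (1.5 ± 0.33, adjusted p = 0.0021). Its SL values rested on 2 to 5 reads per library, whereas 39 to 82 reads were counted in FL. MADS15 (OS07G0108900), a relative of APETALA1 of Arabidopsis that marks the floral transition, was at 21.7, 28 and 22.1 CPM in FL and 8.05, 8.34 and 10.6 CPM in SL (1.34 ± 0.16, adjusted p = 1.8e-06). HD3A, the rice florigen made in leaves, was at 18.7, 21.2 and 18.1 CPM in FL and 7.5, 11.1 and 10.1 CPM in SL (0.99 ± 0.16, adjusted p = 0.00011). None of these 3 genes overlapped between the leaves (22.8% of all genes tested in this direction). MADS34 and MADS15 are among the 12 genes that were taken from those without overlap. MADS18 differed by 0.37 ± 0.11, adjusted p = 0.026, with 284, 268 and 240.4 CPM in FL and 165, 180.5 and 183 CPM in SL, and its call was lost without FL replicate 1 or 2 or SL replicate 1, 2 or 3 (0.051 to 0.11). MADS14 (0.24, adjusted p = 0.51), EHD1 (-0.40, 0.27), HD1 (-0.64, 0.095), MADS50 (-0.03) and MADS56 (-0.08) were not called. Over the MADS family, 4 of the 17 members tested were higher in FL, 1 was higher in SL and the median was -0.03. MADS47 was the member higher in SL, with 4.68, 4.85 and 5.90 CPM in FL and 8.38, 13.4 and 17.5 CPM in SL (-1.11 ± 0.19, adjusted p = 0.00014). With the replicate block, 2 members of the family were higher in SL.

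Of the DNA photolyases and cryptochromes, 2 were higher in FL. CRYD, a DASH cryptochrome of the photolyase family, was at 58.3, 70.3 and 75.5 CPM in FL and 19.1, 33.4 and 26.7 CPM in SL (1.33 ± 0.14, adjusted p = 2.9e-07). UVR3, a photolyase that repairs ultraviolet damage, was at 10.02, 12.4 and 12.4 CPM in FL and 4.41, 6.62 and 5.50 CPM in SL (0.99 ± 0.15, adjusted p = 3.2e-05). The deposited values of the 3 members of this family tested were higher in FL without overlap (22.8% of all genes tested). Calls were made for 2 of them (7.56% of all genes tested), and CRYD is among the 12 genes taken from those without overlap. INO1-1, myo-inositol phosphate synthase, was at 395, 354 and 367 CPM in FL and 101, 154 and 175 CPM in SL (1.17 ± 0.13, adjusted p = 3.8e-07). IPP, for which the reference table lists PPase as a synonym, was at 184, 156 and 154 CPM in FL and 59.9, 67.2 and 57.9 CPM in SL (1.28 ± 0.12, adjusted p = 3.0e-08). PRXIIE-2, a peroxiredoxin by name, was at 16.2, 10.8 and 9.87 CPM in FL and 2.98, 4.70 and 3.72 CPM in SL (1.48 ± 0.34, adjusted p = 0.0029). For ADIPOR3, the values were 22.2, 22 and 24.4 CPM in FL and 8.49, 10.6 and 9.61 CPM in SL (1.2 ± 0.15, adjusted p = 3.3e-06). Of the genes without a name, OS09G0424200 (43.2, 29.2 and 29.9 CPM in FL and 2.43, 3.64 and 2.95 CPM in SL, 3.13) and OS11G0298000 (26, 18.1 and 20.1 CPM in FL and 2.10, 2.49 and 2.02 CPM in SL, 2.79) differed most.

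**Figure D2:**
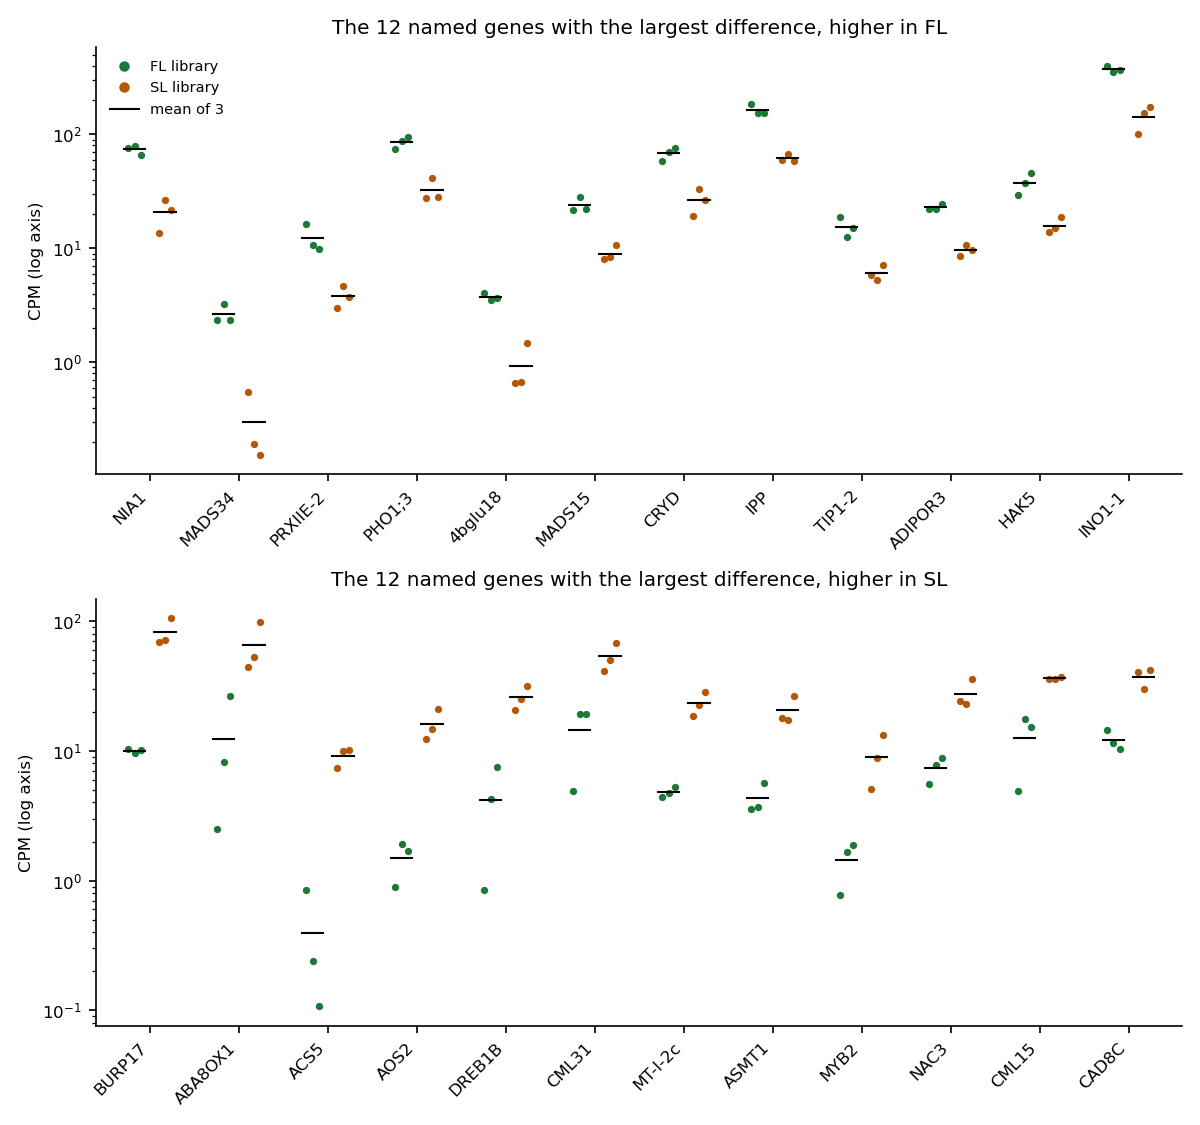
CPM as deposited (log axis) in each FL library (green) and SL library (orange) of 4 DAH for the 12 named genes with the largest difference in each direction, with the mean of 3 libraries as a black line. The genes were taken from those without overlap between the leaves. FL replicate 1 was the lowest library of ABA8OX1, DREB1B, CML31 and CML15, whose FL values spread more than their SL values.

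Transporters of minerals and water differed in both directions. HAK5, a high-affinity potassium transporter, was higher in FL, with 29.2, 37.7 and 45.4 CPM in FL and 13.8, 15.1 and 18.7 CPM in SL (1.2 ± 0.18, adjusted p = 4.8e-05). HAK1, of the same family, was higher in SL, with 14, 11.3 and 11.9 CPM in FL and 28.3, 28.4 and 34.6 CPM in SL (-1.27 ± 0.20, adjusted p = 6.4e-05), as was the sodium transporter HKT1;3, with 8.46, 10.5 and 12.2 CPM in FL and 29, 22.7 and 27.7 CPM in SL (-1.31 ± 0.18, adjusted p = 1.5e-05). Values did not overlap in any of the 3 (22.8% of all genes tested in the direction of FL and 17.3% in that of SL). HAK5 is among the 12 genes that were taken from those without overlap. Of the 27 members of the HAK and HKT families tested, 1 was higher in FL and 3 were higher in SL, and 2 were higher in FL with the replicate block. Over all genes tested, 7.56% were higher in FL and 6.53% were higher in SL. Among the phosphate transporters, 4 of 17 were higher in each direction. Of the PHO1 family, known for loading phosphate into the xylem, 2 members were higher in FL: PHO1;3 was at 75.1, 87.5 and 94.3 CPM in FL and 27.6, 41.4 and 28.2 CPM in SL (1.35 ± 0.22, adjusted p = 7.9e-05). PHO1;1 was at 18.2, 19.3 and 21.7 CPM in FL and 8.27, 11.3 and 10.5 CPM in SL (0.94 ± 0.26, adjusted p = 0.015). Of the Pht1 uptake carriers, 2 were higher in SL: Pht1;8 was at 104, 119 and 127 CPM in FL and 196, 185 and 217 CPM in SL (-0.94 ± 0.16, adjusted p = 0.00019). Pht1;1 was at 116, 123 and 119 CPM in FL and 169, 185 and 196 CPM in SL (-0.78 ± 0.21, adjusted p = 0.010). Its call was lost without replicate 1 (0.057), 2 (0.065) or 3 (0.11) of both leaves. Pht1;4, named after its values were seen, was higher in FL, with 72.0, 62.8 and 55.7 CPM in FL and 36.6, 37.7 and 29.1 CPM in SL (0.82 ± 0.16, adjusted p = 0.00059). Reads of Pht1 copies that resemble each other may be divided between them. The call of PHO1;1 was lost without FL replicate 3 or SL replicate 1 (0.061 to 0.074). The phosphate starvation markers SPX1 (0.16) and SPX2 (0.30) were not called.

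Of the aquaporins, water channels of the plasma membrane and the vacuole, 3 of the 12 list members tested were higher in FL and none was higher in SL (median 0.03). For this and the other counts of this paragraph, the shares of all genes tested were 7.56% higher in FL and 6.53% higher in SL. TIP1-2 of the vacuole was at 18.9, 12.6 and 15 CPM in FL and 5.85, 5.27 and 7.21 CPM in SL (1.24 ± 0.25, adjusted p = 0.0010). PIP1-3 was at 118, 105 and 105 CPM in FL and 58.7, 59.5 and 67.6 CPM in SL (0.71 ± 0.17, adjusted p = 0.0051) and PIP2-2 differed by 0.58 ± 0.15, adjusted p = 0.010, a call that was lost without FL replicate 1 (0.068). Over the 20 aquaporins tested under any name, 3 were higher in FL and 3 were higher in SL, the latter led by NIP1;1 (-0.98, adjusted p = 0.0058) and TIP4;1 (-0.68, 0.0082). The call of TIP4;1 was lost without FL replicate 3 (0.092), and edgeR and DESeq2 on recovered reads each called 5 members higher in SL. In the iron list, 1 of 5 members tested was called. NAAT1, nicotianamine aminotransferase, which makes the iron chelators of grasses, was higher in SL, with 363, 377 and 376 CPM in FL and 569.5, 589 and 591 CPM in SL (-0.85 ± 0.15, adjusted p = 0.00030). The ferritins FER1 (-0.40, adjusted p = 0.0999) and FER2 (-0.27, 0.38) were not called, and with the replicate block 2 members, FER1 (adjusted p = 0.024) included, were higher in SL. The silicon transporters LSI1 (0.31) and LSI6 (0.08) were not called.

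Among the named genes with the largest differences in the direction of SL, AOS2 belonged to the jasmonate list and ABA8OX1 to the abscisic acid list. ACS5 (OS01G0192900), a synthase of the ethylene precursor ACC, was at 0.840, 0.238 and 0.107 CPM in FL and 7.39, 9.88 and 10.1 CPM in SL (-2.73 ± 0.16, adjusted p = 2.6e-12). Its FL values came from 3 to 14 reads per library and its SL values from 67 to 261 reads, and DESeq2 on recovered reads, in a fit that includes the later days, did not call it (adjusted p = 0.38). AOS2 (OS03G0225900), an allene oxide synthase of jasmonate synthesis, was at 0.900, 1.91 and 1.68 CPM in FL and 12.2, 14.7 and 20.9 CPM in SL (-2.67 ± 0.36, adjusted p = 8.2e-06). ABA8OX1 (OS02G0703600), an abscisic acid hydroxylase that inactivates the hormone, was at 2.52, 8.18 and 26.2 CPM in FL and 44.4, 52.4 and 97.8 CPM in SL (-2.80 ± 0.50, adjusted p = 0.00031). For these 3 genes, as for all of the 12 named in each direction for the size of their difference, the absence of overlap was set by the choice of genes. ASMT1, an acetylserotonin methyltransferase by name, was at 3.54, 3.69 and 5.65 CPM in FL and 17.9, 17.36 and 26.2 CPM in SL (-2.0 ± 0.36, adjusted p = 0.00029). BURP17 (OS11G0170900), which carries a BURP domain, showed the largest difference in the direction of SL among the genes with a name on the scale of log2(CPM + 1). It was at 10.3, 9.65 and 10.2 CPM in FL and 68.5, 71.7 and 105 CPM in SL (-3.00 ± 0.25, adjusted p = 7.7e-09). Over the alternatives, the difference of ACS5 reached -4.63 and that of BURP17 -3.13. MT-I-2c, a metallothionein, was at 4.44, 4.77 and 5.29 CPM in FL and 18.6, 22.6 and 28.5 CPM in SL (-2.04 ± 0.30, adjusted p = 3.7e-05). Of the genes without a name, OS01G0141000 (-3.08) and OS01G0644000 (-2.80) differed most. Their FL values were 0.240 to 0.930 CPM and their SL values 9.21 to 22.1 CPM.

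The hormone lists as a whole held few other calls. For the lists of this paragraph, the shares of all genes tested were 7.56% higher in FL and 6.53% higher in SL. In the abscisic acid list, 5 of 8 members were tested, with 1 higher in FL and 2 higher in SL (median -0.26). ABA8OX3, a second hydroxylase of the hormone, differed in the opposite direction to ABA8OX1, with 39.5, 41.7 and 38.2 CPM in FL and 16.5, 22.2 and 15.8 CPM in SL (1.11 ± 0.16, adjusted p = 1.5e-05). The dehydrin LIP9 differed by -0.44 ± 0.14, adjusted p = 0.030, a call that was lost whichever of the 6 libraries was left out (0.055 to 0.13) and without quantile normalization (0.055), and ABA8OX2 (-0.06) and the synthesis gene NCED3 (-0.26) were not called. In the jasmonate list, 14 of 15 members were tested, of which 3 were higher in SL and none was higher in FL (median -0.11). AOS1 was at 7.44, 6.0 and 6.83 CPM in FL and 11.5, 10.5 and 12.8 CPM in SL (-0.66 ± 0.21, adjusted p = 0.035), and the receptor gene COI1A at 152, 155 and 145 CPM in FL and 166, 161 and 180.0 CPM in SL (-0.33 ± 0.11, adjusted p = 0.046). The call of AOS1 was lost without FL replicate 2 or 3 or SL replicate 1 or 3 (0.088 to 0.14), with a pseudocount of 0.1 (0.055) and without the filter on low values (0.055). That of COI1A was lost whichever of the 6 libraries was left out (0.052 to 0.17), without quantile normalization (0.51), without the filter on low values (0.058), with the replicate block (0.071), in edgeR (0.38) and in DESeq2 (0.30). The TIFY repressors, which jasmonate induces, differed by -0.75 (TIFY11B, adjusted p = 0.17, and 0.040 with the replicate block) to 0.44 (TIFY10C), and none was called. In the ethylene list, ACO1, which encodes the enzyme that makes ethylene from ACC, was at 1.02, 1.51 and 0.787 CPM in FL and 2.10, 3.45 and 2.02 CPM in SL (-0.62 ± 0.19, adjusted p = 0.024). Its call was lost without FL replicate 1 or 3 or SL replicate 2 (0.085 to 0.16), with a pseudocount of 0.1 (0.28), with the 6 libraries of the day alone (0.051), in edgeR (0.15) and in DESeq2 (0.093). ACS2 (-0.31) and EIN2 (0.30) were not called. Among the type-A response regulators of cytokinin signalling, 1 of 6 was higher in FL: RR1 was at 32.9, 16.6 and 11.8 CPM in FL and 16.5, 8.25 and 7.32 CPM in SL (0.86 ± 0.29, adjusted p = 0.043). The leaves overlapped, replicate 1 was highest in both, and the call was lost without FL replicate 1 or 2 or SL replicate 2 or 3 (0.061 to 0.34), with a pseudocount of 0.1 (0.067), without the filter on low values (0.069) and with the 6 libraries of the day alone (0.17).

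Several transcription factors of stress responses were higher in SL. All 3 DREB members tested, regulators of cold and drought genes, were called. For this list and the families of this paragraph, the shares of all genes tested were 7.56% higher in FL and 6.53% higher in SL. DREB1B (OS09G0522000) was at 0.840, 4.25 and 7.44 CPM in FL and 20.7, 24.9 and 31.7 CPM in SL (-2.62 ± 0.59, adjusted p = 0.0029). DREB2A was at 11.8, 13.7 and 13.9 CPM in FL and 17.1, 17.2 and 22.8 CPM in SL (-0.50 ± 0.16, adjusted p = 0.033). DREB1A was at 0.120, 0.477 and 1.90 CPM in FL and 2.32, 2.11 and 5.93 CPM in SL (-1.18 ± 0.41, adjusted p = 0.04998). The SL values exceeded the FL values in each of them (17.3% of all genes tested), and FL replicate 1 held the lowest value. DREB1B is among the 12 genes that were taken from those without overlap. The call of DREB2A was lost without FL replicate 1, 2 or 3 or SL replicate 1 or 3 (0.059 to 0.18). That of DREB1A was lost without FL replicate 1 or 2 or SL replicate 1 or 3 (0.072 to 0.27), with a pseudocount of 0.1 (0.065), without the filter on low values (0.077), with the 6 libraries of the day alone (0.057), in edgeR (0.072) and in DESeq2 (0.076). Reads of DREB1 copies that resemble each other may be divided between them. Of 7 AP2/ERF and DREB factors tested by name, 3 were higher in SL and 5 with the replicate block, none was higher in FL and the median was -0.70. NAC3 was at 5.52, 7.78 and 8.80 CPM in FL and 24.3, 23.1 and 35.5 CPM in SL (-1.80 ± 0.41, adjusted p = 0.0030). MYB2 was at 0.780, 1.67 and 1.90 CPM in FL and 5.07, 8.73 and 13.2 CPM in SL (-1.87 ± 0.33, adjusted p = 0.00027). Both are known from salt and drought responses and are among the 12 genes taken for their large difference without overlap. Their SL values were more than 2 times the highest FL value. Of the NAC list, NAP, a regulator of leaf senescence, was at 58.1, 55.0 and 48.1 CPM in FL and 72.4, 78.6 and 74.6 CPM in SL (-0.59 ± 0.14, adjusted p = 0.0045). Its call was lost without replicate 2 (0.0505) or 3 (0.074) of both leaves. NAC6 was at 172, 149 and 117 CPM in FL and 181, 175 and 172 CPM in SL (-0.46 ± 0.13, adjusted p = 0.019), and NAC5 was not called (-0.25). The call of NAC6 was lost without FL replicate 3 or SL replicate 1 (0.077 to 0.17), without quantile normalization (0.11), in edgeR (0.14) and in DESeq2 (0.090). Of the NAC and MYB families tested by name, 2 of 9 and 3 of 10 were higher in SL and none was higher in FL (medians -0.25 and -0.17). Myb4, a regulator of cold responses, was at 5.58, 7.74 and 9.58 CPM in FL and 14.4, 16.5 and 27.8 CPM in SL (-1.23 ± 0.27, adjusted p = 0.0022).

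WRKY71 was at 25.6, 29.1 and 33 CPM in FL and 57.7, 63.4 and 91.3 CPM in SL (-1.34 ± 0.32, adjusted p = 0.0048). WRKY62 was at 1.5, 0.596 and 2.47 CPM in FL and 7.17, 7.67 and 4.03 CPM in SL (-1.45 ± 0.46, adjusted p = 0.034). Both are WRKY factors of defence responses, and WRKY76 (-1.22, adjusted p = 0.068) was not called. All 6 WRKY factors tested by name were below 0 (48.2% of all genes tested), with a median of -1.0. Calls higher in SL were made for 2 of them (6.53% of all genes tested). The call of WRKY62 was lost without FL replicate 1 or 2 or SL replicate 1 or 2 (0.079 to 0.16), with a pseudocount of 0.1 (0.079) and without the filter on low values (0.056). The pathogenesis-related genes PBZ1 (0.16), CHT1 (0.30) and NPR1 (-0.20) were not called. Diterpenoid phytoalexins are antifungal compounds. Of their synthesis list, all 8 members were above 0 (51.8% of all genes tested), with a median of 0.47. In this list 1 was called higher in FL (7.56% of all genes tested), or 2 with the replicate block. CYP99A2, of momilactone synthesis, was at 4.02, 5.08 and 4.18 CPM in FL and 2.10, 2.01 and 1.86 CPM in SL (0.88 ± 0.24, adjusted p = 0.012). Its call was lost without FL replicate 2 or SL replicate 3 (0.056 to 0.058) and with a pseudocount of 0.1 (0.070). CPS4, a diterpene synthase of the same pathway, was at 44.4, 54.5 and 53.4 CPM in FL and 21.9, 29.8 and 26.2 CPM in SL but was not called (0.92, adjusted p = 0.082). No member of the flavonoid and phenylpropanoid list was called among 6 tested. CHS1, chalcone synthase, was at 3.66, 2.54 and 3.68 CPM in FL and 0.993, 1.15 and 1.05 CPM in SL (1.07, adjusted p = 0.31), and the median was 0.21.

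Of the calcium-binding genes, CML31 was at 4.86, 19.1 and 19.1 CPM in FL and 41.5, 50.4 and 68.2 CPM in SL (-2.10 ± 0.56, adjusted p = 0.011). CML15 was at 4.86, 17.6 and 15.2 CPM in FL and 35.7, 35.8 and 37.3 CPM in SL (-1.69 ± 0.44, adjusted p = 0.0087). Both encode calmodulin-like proteins, and FL replicate 1 was far below the other FL libraries. The call of CML15 was lost without FL replicate 1 (0.092). The call of CML31 was lost without FL replicate 1 or SL replicate 3 (0.058 to 0.10). Of the 23 calmodulins and calmodulin-like proteins tested, 3 were higher in SL and 1 was higher in FL, CML2 (0.47, adjusted p = 0.035, at 0.331 to 1.11 CPM), with a median of -0.22. For this and the kinase families of this paragraph, the shares of all genes tested were 7.56% higher in FL and 6.53% higher in SL. The call of CML2 was lost without FL replicate 1, 2 or 3 or SL replicate 1 or 3 (0.068 to 0.21), without quantile normalization (0.096), with a pseudocount of 0.1 (0.17), with the 6 libraries of the day alone (0.064), in edgeR (0.22) and in DESeq2 (0.20). Of the CBL-interacting kinases, 4 of 25 were higher in FL and 1 was higher in SL. CIPK31 was at 757, 660.1 and 703 CPM in FL and 303, 332 and 299 CPM in SL (0.87 ± 0.12, adjusted p = 1.9e-05). CIPK05 was at 226, 237 and 239.6 CPM in FL and 119, 153 and 136 CPM in SL (0.61 ± 0.14, adjusted p = 0.0039) and, in the direction of SL, CIPK02 at 100.1, 102 and 107 CPM in FL and 126, 136 and 162 CPM in SL (-0.58 ± 0.10, adjusted p = 0.00019). Among 19 calcium-dependent kinases, CDPK3 (0.88, adjusted p = 0.0073) was higher in FL and CDPK19 (-0.37, 0.039) and CDPK8 (-0.28, 0.0039) were higher in SL. The call of CDPK3 was lost without SL replicate 3 (0.053). The call of CDPK19 was lost without FL replicate 1 or 3 or SL replicate 1, 2 or 3 (0.055 to 0.18), without quantile normalization (0.20), without the filter on low values (0.0504), in edgeR (0.14) and in DESeq2 (0.086). The call of CDPK8 was lost without quantile normalization (0.21) and in edgeR (0.11). The mitogen-activated kinases MPK2 (0.52, adjusted p = 0.0038) and MAPK6 (OS05G0566400, 0.45, 0.015) were higher in FL, 2 of 16 tested. The call of MAPK6 was lost without SL replicate 1 or 3 (0.052 to 0.083). With the replicate block, 1 was higher in SL.

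The stress-associated A20/AN1 zinc finger proteins had 4 of 12 members higher in SL and none higher in FL (median -0.14). iSAP1 was at 25.8, 42.0 and 40.3 CPM in FL and 79.9, 86.7 and 115 CPM in SL (-1.49 ± 0.32, adjusted p = 0.0016). SAP17 was at 0.60, 2.78 and 2.93 CPM in FL and 5.40, 7.0 and 8.64 CPM in SL (-1.38 ± 0.39, adjusted p = 0.016). The call of SAP17 was lost without FL replicate 1 or SL replicate 3 (0.076 to 0.14), with a pseudocount of 0.1 (0.098), in edgeR (0.060) and in DESeq2 (0.060). Of the protein phosphatases 2C, which include brakes on abscisic acid signalling, 4 of 51 were higher in FL and 7 were higher in SL. For this and the other families of this paragraph, the shares of all genes tested were 7.56% higher in FL and 6.53% higher in SL. PP2C32 was at 83.3, 124 and 124 CPM in FL and 178, 202 and 220.1 CPM in SL (-1.04 ± 0.17, adjusted p = 0.00014). PP108 was at 7.56, 4.85 and 4.86 CPM in FL and 14.8, 12.2 and 12.4 CPM in SL (-1.04 ± 0.35, adjusted p = 0.046), while PP2C01 (0.58, adjusted p = 1.9e-05) and PP2C13 (0.37, 0.033) were higher in FL. The call of PP108 was lost without FL replicate 2 or 3 or SL replicate 1, 2 or 3 (0.077 to 0.17) and without the filter on low values (0.074). The call of PP2C13 was lost without FL replicate 1, 2 or 3 or SL replicate 1 or 3 (0.074 to 0.16). Cinnamyl alcohol dehydrogenases, enzymes of lignin precursors, were called in both directions, 1 higher in FL and 2 higher in SL of 7 tested. CAD8C was at 14.5, 11.5 and 10.3 CPM in FL and 40.6, 29.7 and 41.6 CPM in SL (-1.61 ± 0.27, adjusted p = 0.00014) and its neighbour in name CAD8B at 6.96, 6.12 and 5.65 CPM in FL and 20.3, 16.7 and 26.2 CPM in SL (-1.59 ± 0.23, adjusted p = 2.1e-05), while CAD3 was at 257, 214 and 225 CPM in FL and 86.2, 101 and 105 CPM in SL (1.07 ± 0.26, adjusted p = 0.0059). Reads of CAD8 copies that resemble each other may be divided between them. In the heat shock list, 1 of 2 members tested was called: HSFA2D was higher in FL by 0.39 ± 0.11, adjusted p = 0.021. Its call was lost without FL replicate 2 or 3 or SL replicate 1 (0.058 to 0.13). HSP81-2, an HSP90 chaperone, was higher in SL, with 832, 749 and 712 CPM in FL and 1319, 1160.2 and 1193 CPM in SL (-0.80 ± 0.14, adjusted p = 0.00019), 1 of 14 heat shock proteins tested and 2 with the replicate block.

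**Figure D3:**
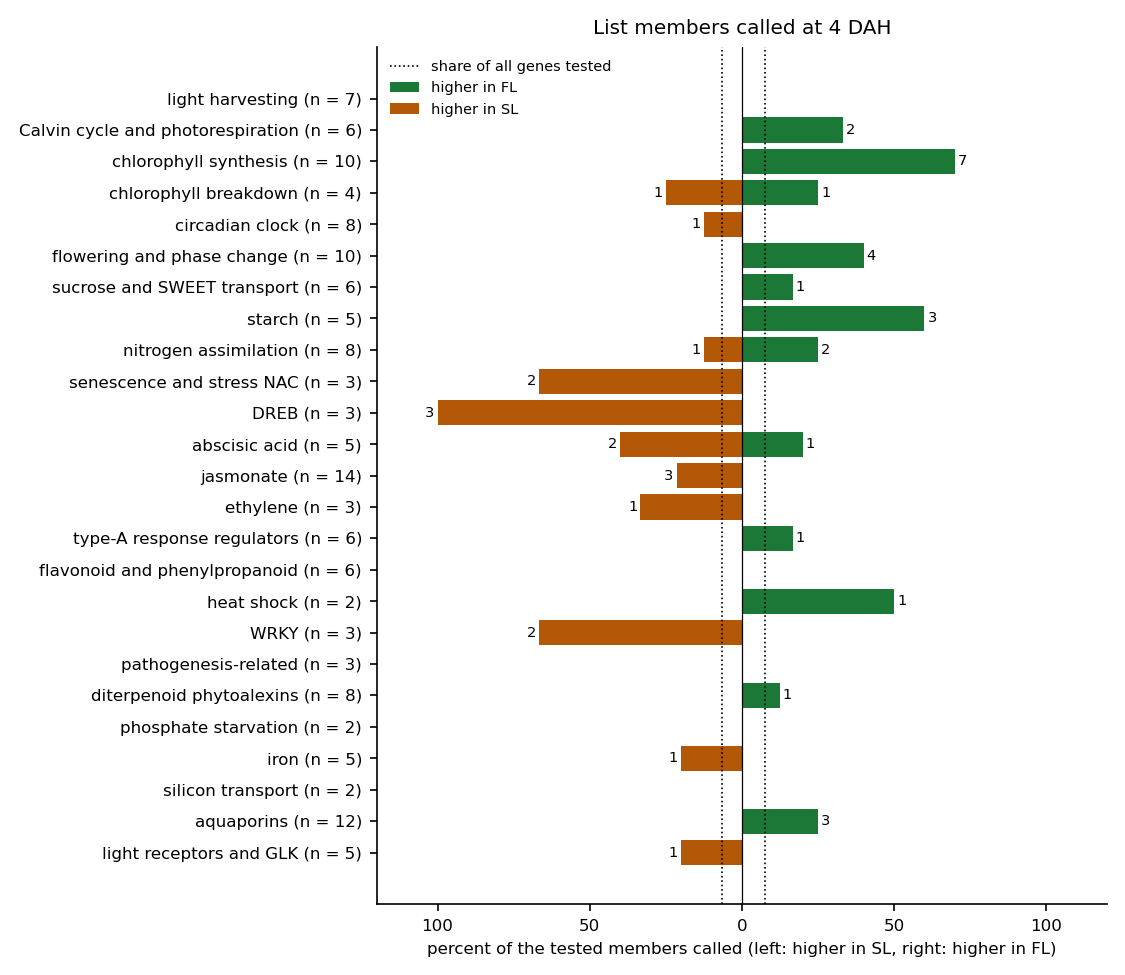
Percent of the tested members of each list that were called at 4 DAH (bars to the right, higher in FL; bars to the left, higher in SL), with the count beside each bar and the number tested after each name. Dotted lines mark the share of all genes tested, 7.56% and 6.53%; chlorophyll synthesis holds the most members higher in FL (7 of 10), and DREB (3 of 3) and jasmonate (3 of 14) the most higher in SL.

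Of the 8 clock genes, all tested, 1 was higher in SL (6.53% of all genes tested) and none was higher in FL (7.56%) in the fit without pairing. Also, 3 of them differed between the replicate numbers. PRR73, a pseudo-response regulator of the circadian clock, was at 34.3, 65.8 and 121 CPM in FL and 17, 44.3 and 56.0 CPM in SL. PRR37 was at 3.60, 6.87 and 11.7 CPM in FL and 2.65, 6.23 and 7.63 CPM in SL and PRR95 at 54.1, 71.4 and 78.6 CPM in FL and 38.9, 51.0 and 59.6 CPM in SL. In each leaf, replicate 1 was lowest and replicate 3 was highest for all 3 genes. Without pairing none of them was called (adjusted p = 0.11, 0.38 and 0.29), whereas with the replicate block all 3 were higher in FL, by 0.83 ± 0.11 (adjusted p = 0.00013), 0.37 ± 0.12 (0.047) and 0.37 ± 0.11 (0.025). The same order of replicates was found for ABA8OX1, DREB1B, Myb4 and MYB2 among the genes higher in SL, with FL replicate 1 lowest and SL replicate 3 highest. It was not confined to these genes. WRKY71, MT-I-2c, MADS47 and CIPK02, higher in SL, and HAK5, higher in FL, also rose from replicate 1 to replicate 3 in both leaves. The calls of ABA8OX1, DREB1B, Myb4 and MYB2 were kept with the replicate block. That of DREB1B was lost without replicate 1 of both leaves (adjusted p = 0.065), and those of DREB1B (0.14) and Myb4 (0.060) were lost without replicate 1 of all 12 groups. GI was higher in SL, with 7.56, 9.21 and 11.4 CPM in FL and 10.04, 16.8 and 13.6 CPM in SL (-0.45 ± 0.15, adjusted p = 0.045), and overlapped between the leaves. Its call was lost without FL replicate 1 or 2 or SL replicate 2 or 3 (0.097 to 0.29), without quantile normalization (0.058), without the filter on low values (0.064) and with the 6 libraries of the day alone (0.13). LHY was at 4867, 4818 and 4688 CPM in FL and 3846, 4285 and 3258 CPM in SL, but held the same rank in all 6 libraries, so that quantile normalization set its difference to 0. ELF3-1 (0.18), PRR1 (-0.01) and PCL1 (0.12) were not called. Of the light receptors, PHYA was higher in SL, with 50.3, 61.0 and 56.3 CPM in FL and 77.6, 72.8 and 81.0 CPM in SL (-0.57 ± 0.18, adjusted p = 0.033). Its call was lost without FL replicate 1, 2 or 3 or SL replicate 1 or 3 (0.058 to 0.11), without quantile normalization (0.12), without the filter on low values (0.0504), in edgeR (0.086) and in DESeq2 (0.056). PHYB (-0.31), PHYC (-0.27), GLK1 (-0.14) and GLK2 (-0.08) were not called.

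**Figure D4:**
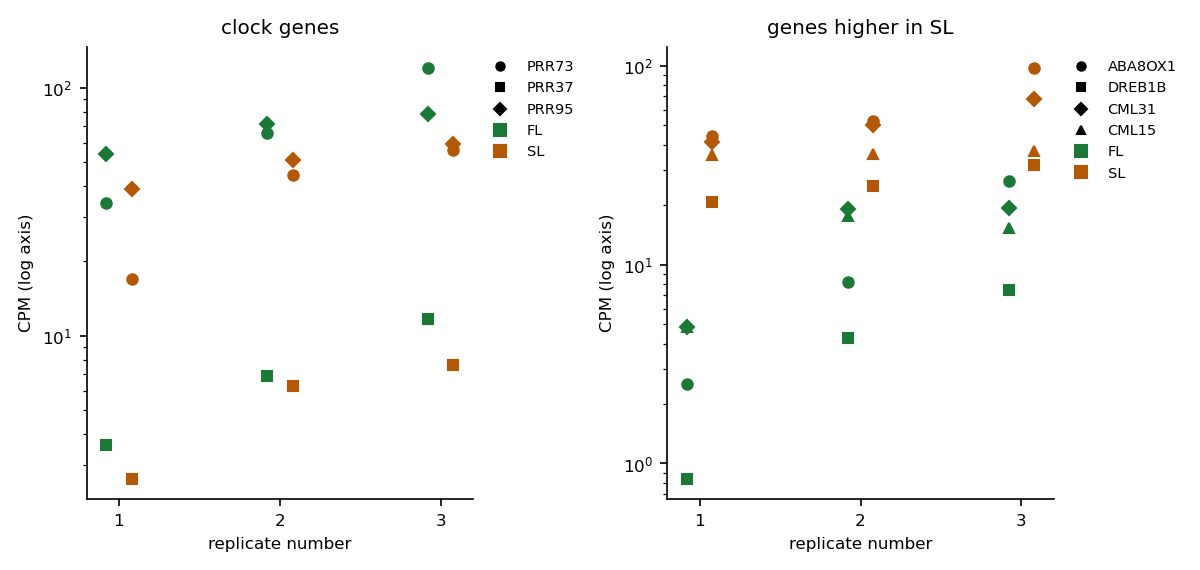
CPM as deposited (log axis) by replicate number in FL (green) and SL (orange) for 3 clock genes (left) and 4 genes higher in SL (right). Replicate 1 is lowest and replicate 3 highest in both leaves for PRR73, PRR37 and PRR95, and FL replicate 1 is the lowest library for ABA8OX1, DREB1B, CML31 and CML15.

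Of 25 kinesins tested, motor proteins of microtubules, 23 were above 0 (51.8% of all genes tested), 4 were higher in FL (7.56% of all genes) and none was higher in SL (median 0.26). KCBP was at 21.1, 28.8 and 30.4 CPM in FL and 13.8, 16.5 and 14.3 CPM in SL (0.80 ± 0.14, adjusted p = 0.00034). KIN13B was at 4.20, 4.85 and 5.33 CPM in FL and 1.99, 2.69 and 2.60 CPM in SL (0.79 ± 0.17, adjusted p = 0.0017). Of 7 D-type cyclins, 2 were higher in FL, CYCD4-2 (0.78, adjusted p = 0.0078) and CYCD5-3 (0.32, adjusted p = 0.049), and 1 was higher in SL, CYCD5-1 (-0.68, adjusted p = 0.019). The call of CYCD4-2 was lost without SL replicate 1 or 3 (0.052 to 0.056). The call of CYCD5-3 was lost without FL replicate 1, 2 or 3 or SL replicate 1 or 3 (0.080 to 0.23), with a pseudocount of 0.1 (0.051) and without the filter on low values (0.059). The call of CYCD5-1 was lost without FL replicate 2 or 3 or SL replicate 2 or 3 (0.051 to 0.072) and with a pseudocount of 0.1 (0.14). Of 59 ribosomal proteins, of the cytosol and the organelles, 3 were higher in FL and 7 were higher in SL (median -0.18), and without quantile normalization these counts were 5 and 3. Over all genes tested, for comparison with these and the other families of this paragraph, 7.56% were higher in FL and 6.53% were higher in SL. CL18 (0.82, adjusted p = 0.0085) and CL27 (0.64, adjusted p = 0.0076) led in FL, the first lost without FL replicate 1 (0.064) and the second without FL replicate 1 (0.054), and RPL7A-1 (-0.67, adjusted p = 0.00027) and RPL11 (-0.64, adjusted p = 0.015) led in SL, the latter lost without FL replicate 3 or SL replicate 3 (0.053 to 0.11) and without quantile normalization (0.051). Of 43 auxin response factors and Aux/IAA repressors, IAA2 (0.50, adjusted p = 0.024) was higher in FL and IAA15 (-0.78, adjusted p = 0.00075) and IAA16 (-0.87, adjusted p = 0.0059) were higher in SL, against 2 and 5 with the replicate block. The call of IAA2 was lost without FL replicate 1 or 2 or SL replicate 1 or 3 (0.069 to 0.077). The call of IAA16 was lost without SL replicate 3 (0.076). Homeobox genes gave 3 of 22 higher in SL, among them Hox4 with 68.6, 56.1 and 59.7 CPM in FL and 98.4, 84.4 and 105 CPM in SL (-0.75 ± 0.12, adjusted p = 7.4e-05) and Hox5 (-0.90, adjusted p = 0.0087), and none higher in FL (1 with the replicate block).

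Of 16 bZIP factors, bZIP83 (-0.83, adjusted p = 0.011) and bZIP49 (-0.67, adjusted p = 0.0097) were higher in SL and none was higher in FL. The call of bZIP83 was lost without FL replicate 2 or SL replicate 1 or 3 (0.0502 to 0.070). The call of bZIP49 was lost without SL replicate 1 (0.077). Of 45 C3H zinc fingers, 4 were higher in each direction, led by C3H54 (0.76, adjusted p = 0.043) and C3H12 (0.57, adjusted p = 0.00062) in FL and C3H60 (-1.01, adjusted p = 0.00011) and C3H37 (-0.89, adjusted p = 0.0051) in SL. The shares of all genes tested, for this and the other families of this paragraph, were 7.56% higher in FL and 6.53% higher in SL. The call of C3H54 was lost without FL replicate 2 or 3 or SL replicate 1, 2 or 3 (0.082 to 0.19) and without the filter on low values (0.067). Of 35 thioredoxins and glutaredoxins, which regulate proteins through thiols, 6 were higher in FL and 3 were higher in SL, led by Trx16 (0.57, adjusted p = 0.046) and GRXS10 (0.57, adjusted p = 0.0091) against GRXS5 (-1.45, adjusted p = 0.0036) and GRXS9 (-0.88, adjusted p = 0.023). The call of Trx16 was lost whichever of the 6 libraries was left out (0.051 to 0.22), without the filter on low values (0.068) and with the replicate block (0.056). The call of GRXS10 was lost without FL replicate 1 or SL replicate 2 (0.052 to 0.053). The call of GRXS9 was lost without FL replicate 1 or 2 or SL replicate 1 or 3 (0.056 to 0.093) and with a pseudocount of 0.1 (0.075). Of 6 glutathione S-transferases, GST-I (1.12, adjusted p = 0.0085) and GSTZ5 (0.34, adjusted p = 0.038) were higher in FL and GSTU6 (-1.10, adjusted p = 0.047) was higher in SL. The call of GST-I was lost without SL replicate 1 (0.071). The call of GSTZ5 was lost without FL replicate 2 or 3 or SL replicate 1, 2 or 3 (0.069 to 0.13) and with the replicate block (0.052). The call of GSTU6 was lost without FL replicate 2 or 3 or SL replicate 1, 2 or 3 (0.063 to 0.19), with a pseudocount of 0.1 (0.085) and without the filter on low values (0.077), and the block left 1 call in FL. Of 32 cytochromes P450, 8 were higher in FL, led by ABA8OX3 and CYP99A2, and 6 were higher in SL, led by ABA8OX1 and AOS2. Of 24 beta-glucosidases, 4bglu18 (1.34, adjusted p = 0.00048) and 3bglu7 (1.08, adjusted p = 0.0074) were higher in FL and 4bglu12 (-0.83, adjusted p = 0.0070) was higher in SL, with 2 higher in SL under the block. Of 10 ABCG transporters, ABCG42 (0.99, adjusted p = 0.011) was higher in FL and ABCG53 (-0.69, adjusted p = 0.013) and ABCG44 (-0.55, adjusted p = 0.026) were higher in SL. The call of ABCG42 was lost without replicate 1 (0.058), 2 (0.053) or 3 (0.13) of both leaves. The call of ABCG53 was lost without FL replicate 1 or SL replicate 1 (0.069 to 0.071). The call of ABCG44 was lost without FL replicate 1 or 2 or SL replicate 1, 2 or 3 (0.052 to 0.11) and without quantile normalization (0.073). Of 21 cellulose synthases and relatives, CslA3 (0.82, adjusted p = 0.014) was higher in FL and 3 were higher in SL, led by CslA5 (-0.84, adjusted p = 0.00051) and CslE1 (-0.67, adjusted p = 0.00048). The call of CslA3 was lost without FL replicate 2 or SL replicate 3 (0.058 to 0.060) and with a pseudocount of 0.1 (0.053), and 2 members were higher in FL with the block.

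The difference between the leaves at 4 DAH was also set against the mean difference at the 5 later days, to see which genes differed more, or less, on this day than afterwards. This contrast was called for 1661 genes (7.53% of those tested), 941 positive (4.27%) and 720 negative (3.26%). Of the 1667 genes higher in FL at 4 DAH, 558 had a significantly larger difference at that day than later, and of the 1441 higher in SL, 425. The 4 DAH libraries enter both comparisons, so that the counts are not independent. For NIA1 the FL minus SL difference was 1.83 at 4 DAH, 0.67 at 12 DAH and -0.19 at 28 DAH. GLN1-2 was higher in FL at 4 DAH (1.01) and lay at -0.51 to -0.18 at the later days. ACS5 and ABA8OX1 were at -2.73 and -2.80 at 4 DAH and at 0.03 and 0.12 in the mean of the later days. For these 4 genes the contrast was called (adjusted p = 9.4e-06, 8.5e-06, 2.1e-11 and 0.0015). The contrast was not called for MADS15 (0.36, adjusted p = 0.22), UVR3 (-0.08, 0.82), MADS34 (0.17, 0.83) and MT-I-2c (-0.13, 0.86), whose mean differences at the later days were 0.98, 1.07, 1.33 and -1.91. When 1 library of 4 DAH was left out, the contrast was called for 787 (SL replicate 3) to 1344 genes (SL replicate 2), and for 932 to 996 genes without each of the others.

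**Figure D5:**
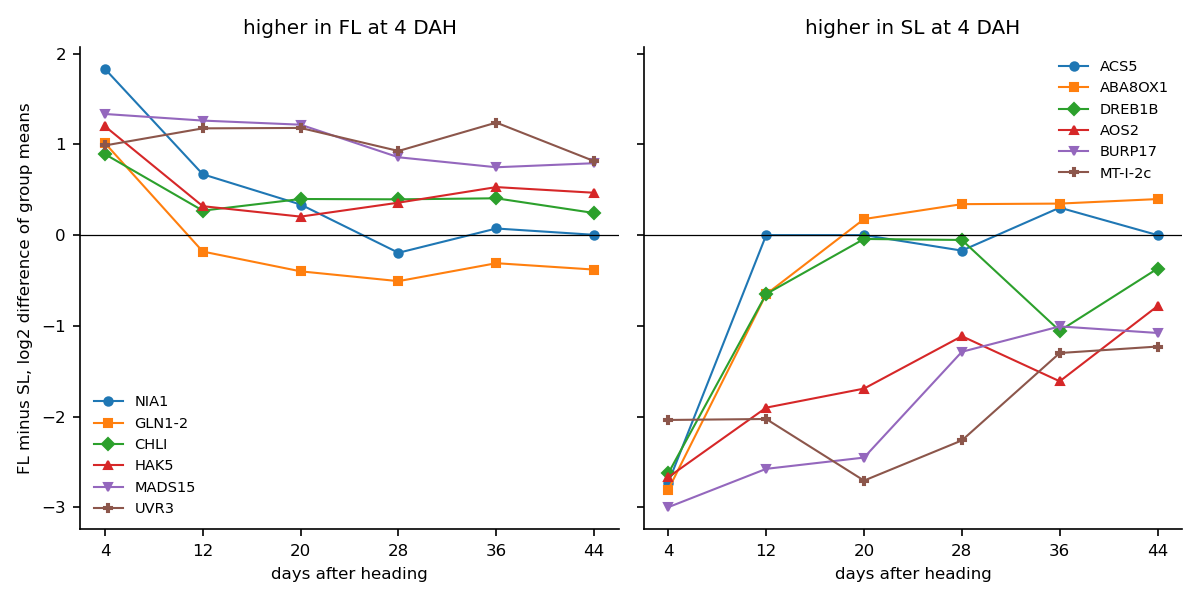
FL minus SL difference of the group means (vertical axis, log2, quantile normalized) by days after heading for 6 genes higher in FL at 4 DAH (left) and 6 genes higher in SL at 4 DAH (right). ACS5 and ABA8OX1 lie at -2.73 and -2.80 at 4 DAH and between -0.17 and 0.40 from 20 DAH on, whereas MADS15, UVR3 and MT-I-2c stay on the same side of 0 at all 6 days.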

How the data were processed

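Leaf mRNA was sequenced in paired ends on strand-specific libraries, and the headers of the deposited table gave the leaf, day and replicate of each column. According to the study's methods and processing notes, the authors trimmed adapters with cutadapt 1.2.1, aligned reads to the rice genome build IRGSP-1.0 with TopHat2 2.0.10, counted reads on genes with HTSeq 0.6.1 and normalized the counts to TMM effective library sizes in edgeR. The deposited signal values were thus CPM on effective library sizes, on the linear scale and before quantile normalization. Reads aligned to several places were allowed by the aligner, so that values of near-identical genes are uncertain.

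Log2(CPM + 1) values of 36 libraries were quantile normalized and fitted in limma 3.58.1 with a mean-dependent prior, as 12 groups of leaf and day without a replicate term. The test covered 22057 of 38026 genes, those reaching 1 on this scale in a minimum of 3 libraries, with Benjamini-Hochberg adjustment over all of them. Quantile normalization gives genes of equal rank equal values, which removes differences among the few genes with the most reads. Each value was a whole multiple of the step of its column within 0.01 reads, for 100% of the values, and the step gave the reads per library. At 4 DAH a count of 3 reads corresponded to 0.107 to 0.331 CPM, which covers counting error only, so genes at or below 0.331 CPM were near the limit of detection in the shallowest library. Reads recovered in this way from 35 libraries entered edgeR 4.0.16 and DESeq2 1.42.0 as alternatives; FL replicate 1 of 28 DAH was left out of these because its step of 0.101 CPM lies near a round decimal, where rounding of the values can also give whole multiples. No column of sample values was left unused.

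Libraries of the same leaf differed by more than sampling noise (chi-square per degree of freedom 3.94 to 28.0), and each counted as 1 sample. Replicate numbers in the labels are shared by both leaves. After subtraction of the group mean, FL and SL libraries with the same number correlated at 0.36, 0.13 and 0.23 over genes, against -0.42 to 0.27 for different numbers, and a fit with the replicate as a block was therefore given where it changed a call. That same-numbered libraries belong together rests on these correlations, not on a statement in the labels.

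Genes were named where they were called members of 25 lists, among the 12 genes with the largest difference in each direction that had a name and did not overlap between leaves (with up to 2 per direction without a name), or among the 2 called members with the largest difference in each direction of 32 families defined by name patterns. These lists and families were chosen with earlier results of these data known. Names came from the deposited symbols, the gene descriptions of the study and a reference table of assembly ASM3414082v1, used for names only, which matched 23729 genes, and 2923 genes had a name. Of 248 identifiers considered for the lists, 164 could be paired with a name. Genes of more than 1 list or family were counted in each. The value of 1 list member, which the counts and medians include, is not reported here. Alternatives covered normalization, pseudocount, filters, the set of libraries, the replicate block, the omission of replicates and count models.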

Additional observations from a re-analysis of the deposited data

Results flagged for a closer look

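Of the 131 named genes, 49 differed between FL and SL at 4 DAH by another amount than at the later days, as tested by the contrast of the difference at 4 DAH with the mean of 5 later days in limma (adjusted p below 0.05, which 7.53% of all genes tested reached). In all 49 the difference was larger at 4 DAH in its own direction. The genes were named for their difference at 4 DAH, which is part of the contrast, so that a larger share than the background was given by the choice.

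For the 24 genes higher in FL, the contrast on the log2 scale was largest for OS09G0424200 (2.38), GST-I (1.70), NIA1 (1.65), CYP99A2 (1.41), OS11G0298000 (1.40), GLN1-2 (1.37), CIPK05 (1.12), IAA2 (0.95), SWEET1a (0.94), CDPK3 (0.88), PHO1;3 (0.85) and HAK5 (0.82). It was smaller for IPP (0.81), INO1-1 (0.78), ABA8OX3 (0.74), HD3A (0.66), KIN13B (0.66), ADIPOR3 (0.63), HSFA2D (0.55), CHLI (0.55), KCBP (0.51), CHLG (0.48), CIPK31 (0.48) and MAPK6 (0.44). NIA1 and GLN1-2, of nitrogen assimilation, stand in the first group, and CHLI and CHLG, of chlorophyll synthesis, in the second.

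For the 25 genes higher in SL, the contrast was largest for ABA8OX1 (-2.93), OS01G0141000 (-2.79), ACS5 (-2.75), DREB1B (-2.19), CML31 (-2.17), NAC3 (-1.79), MYB2 (-1.77), CML15 (-1.66), GRXS5 (-1.48), CAD8B (-1.33), BURP17 (-1.32), HKT1;3 (-1.27) and AOS2 (-1.25). It was smaller for iSAP1 (-1.24), CAD8C (-1.23), WRKY71 (-1.20), Pht1;8 (-1.15), PP2C32 (-1.10), Pht1;1 (-1.04), C3H37 (-0.82), AOS1 (-0.80), C3H60 (-0.71), GI (-0.65), CIPK02 (-0.51) and LIP9 (-0.51). The first group holds ACS5, ABA8OX1, DREB1B and AOS2, of hormones and cold responses. FL replicate 1 was lowest for several of these genes, and its part in the contrast was not tested beyond the omission of single libraries.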

How the results depend on the processing

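No gene was called in the opposite direction under any alternative, and no named gene changed sign. The counts of genes called in total, higher in FL and higher in SL, and the count of the contrast with the later days were within 1.5 times of those reported without quantile normalization, with a pseudocount of 0.1, without or with a stricter filter on low values, in edgeR and in DESeq2. With the 6 libraries of 4 DAH alone, 5002 genes were called, 2573 higher in FL and 2429 higher in SL, and the contrast with the later days could not be fitted. In that fit, 40 of the 114 counts of list and family members were not within 1.5 times of those reported. That number was 48, 36 and 50 with replicate 1, 2 or 3 of both leaves left out, and 16 without quantile normalization. Requiring also an absolute difference of at least 0.58 left 1725 genes, 889 higher in FL and 836 higher in SL, and 1041 genes in the contrast with the later days, by construction. With 1 replicate left out of FL, of SL, of both, or of all 12 groups, 905 to 2709 genes were called, 498 to 1410 of them higher in FL and 407 to 1299 higher in SL, and 183 to 1344 in the contrast with the later days; fewer libraries enter these fits.

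With the replicate block, 3666 genes were called, 1898 higher in FL and 1768 higher in SL, and 2187 in the contrast with the later days. The block changed the calls of 5 of the 131 named genes, AGPS2, COI1A, FBPASE, GSTZ5 and Trx16, and 126 kept theirs.

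Under the stricter filter, 2 of the 131 named genes were not tested. Of the 131, 43 were called in every alternative, and 80 when any 1 of the 6 libraries was left out. The number that lost the call was 31, 30 and 25 without FL replicates 1, 2 and 3, and 34, 19 and 37 without SL replicates 1, 2 and 3. It was 67, 38 and 60 with replicate 1, 2 or 3 of both leaves left out, and 70, 56 and 39 with it left out of all 12 groups. Losses on leaving out a replicate of both leaves or of all groups are given by gene for only some of the genes named. The calls lost without quantile normalization were those of ABCG44, CDPK19, CDPK8, CML2, COI1A, GI, LIP9, NAC6, PHYA, RPL11 and SWEET14. The cause of these changes was not tested. The SL libraries with the fewest reads (replicates 1 and 2) limit what could be seen of genes near 0.331 CPM, and genes such as MADS34, DREB1A and ACS5 rest on a few reads in 1 leaf. RCA, ALDP and LHY held the same rank in all 6 libraries of 4 DAH, so that quantile normalization set their differences on that day to 0.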
